A study of Mus musculus with 8 samples.

Results

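Semaphorins, plexins and neuropilins are a family of guidance signals and their receptors. Members were taken by gene symbol, as every gene of semaphorin classes 3 to 7, every plexin of families A to D and both neuropilins. This gave 31 of the 38553 genes in the deposited table, namely 20 semaphorins, 9 plexins and 2 neuropilins. Their expression was measured by RNA-Seq in dorsal and ventral medial entorhinal cortex (MEC), the cortical area whose grid cells change in scale along this axis. The question was which ligands and receptors of the family are present in MEC and which of them differ between its dorsal and ventral parts.

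There were 8 libraries, 4 from dorsal and 4 from ventral MEC of 13 male C57Bl/6JolaHsd mice aged 8 weeks, which carried no transgene and received no treatment. Both regions were cut from the same kind of acute slice, a 400 µm sagittal section through the right MEC. Each library holds RNA pooled from 3 or 4 mice, so p-values here measure the spread between pools and not between animals. Which pool of mice a library came from is not given here, and the regions were therefore compared unpaired. The libraries held between 10780902 and 15359782 fragments assigned to genes.

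The columns of the deposited expression table are headed with a letter and a number, and for 4 of the 8 libraries the letter differs from the region used here. Columns D1, V1, D2 and V2 were taken as dorsal and columns D3, V3, D4 and V4 as ventral. With this assignment the column means equal the authors' dorsal means within 0.1% for 14977 and their ventral means for 14967 of the 14989 genes with enough alignments. The assignment thus rests on a match of values and not on the headers. Under the regions that the headers name, 0 of the 28 members tested passed the test (limma, described below). At an unadjusted p under 0.05, 0 of them passed as well. Each region of the headers mixes libraries taken here as dorsal and as ventral in equal number, so differences between these largely cancel. The counts of 0 therefore cannot check the assignment. Values are given below in the order D1, V1, D2, V2 for dorsal MEC and D3, V3, D4, V4 for ventral MEC.

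Semaphorins are secreted (class 3) or held in the membrane (classes 4 to 7), and plexins are the receptors through which most of them act. Secreted class 3 semaphorins bind mainly to neuropilins, which lack signaling activity of their own and form a complex with a plexin A. Plexins change the state of small GTPases inside the cell and so act on the cytoskeleton and on adhesion. These signals guide growing axons, and in the adult cortex they are known for roles at dendrites and synapses.

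Most members were expressed in MEC. Levels are in FPKM, a measure of fragments per exon length that is scaled to library depth and can be compared between genes. Averaged over the 8 libraries, an FPKM of 1 or more was reached by 28 of the 31 members, 17 of the 20 ligands and 11 of the 11 receptors. The same 28 members had enough alignments for the authors' test and are those tested below. The 3 members under this level were the secreted ligands *Sema3b* (mean FPKM 0.435), *Sema3f* (0.56) and *Sema3g* (0.147). Between 12 and 32 fragments per library stood behind *Sema3b*, between 25 and 45 behind *Sema3f* and between 4 and 25 behind *Sema3g*, and no difference between the regions was tested for them. On the other side of this limit, the lowest members kept were *Sema4c* (1.30) and *Plxnb3* (1.58). A mean FPKM of at least 10 was reached by 5 ligands and 4 receptors.

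Receptors and ligands covered a similar range of levels. The median of the receptors was 8.15 FPKM (range 1.58 to 28.7) and that of the ligands 6.70 FPKM (range 0.147 to 29.2). The median over the 13674 genes tested was 7.98 FPKM. Members are not replicates, and this difference was not tested. The summed FPKM of the 20 ligands was 138 ± 3.51 (SD, n = 4) in dorsal and 138 ± 1.27 in ventral MEC.

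Among the ligands, *Sema6d* had the highest level. This transmembrane semaphorin, which binds plexin A1, stood at 28.9, 29.8, 28.7 and 29.3 FPKM in dorsal libraries. In ventral libraries it stood at 28.5, 32.0, 30.5 and 25.9 FPKM. The dorsal values lay within the ventral range, and *Sema6d* was above 83.9% of the genes tested in mean FPKM. It was followed in its class by *Sema6a* (mean 10.7 FPKM), *Sema6b* (5.85) and *Sema6c* (1.97).

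Class 3 was the most uneven class. *Sema3c*, a secreted ligand that binds both neuropilins, was its highest member, with 10.9, 10.4, 9.83 and 11.99 FPKM in dorsal and 12.6, 14.1, 12.9 and 16.2 FPKM in ventral libraries. Every ventral FPKM value was above every dorsal one. By in situ hybridization the authors listed *Sema3c* among genes that were high ventral to MEC and low within it. *Sema3a*, which acts through neuropilin 1, had a mean of 8.15 FPKM, and *Sema3e*, which binds plexin D1 directly, one of 7.56. *Sema3d* (1.92) was much lower, and the other 3 members of the class were those below 1.

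Class 4 members, all transmembrane, ranged from *Sema4f* (10.1 FPKM) and *Sema4a* (9.72) over *Sema4d* (8.10), *Sema4b* (3.77) and *Sema4g* (3.66) down to *Sema4c* (1.30). *Sema4f* stood at 9.68, 9.86, 10.4 and 8.74 FPKM in dorsal and at 10.5, 10.98, 11.3 and 9.46 in ventral libraries, so that the regions overlapped. In class 5, whose members carry thrombospondin repeats outside the membrane, *Sema5a* (7.81) was above *Sema5b* (2.86). *Sema7a*, the single class 7 member and anchored to the membrane by a lipid, had a mean of 11.7 FPKM.

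Among the receptors, *Plxna2* was highest. It is a receptor of class 6 semaphorins and, with neuropilins, of class 3. Its dorsal values were 30.1, 27.8, 27.8 and 33.9 FPKM and its ventral values 25.4, 29.8, 27.7 and 27.0 FPKM, which overlapped. *Plxna4* (16.4), *Plxna3* (7.86) and *Plxna1* (6.74) followed in the A family. By mean over the 8 libraries *Sema6d* ranked first and *Plxna2* second among the 31 members, but their ranges overlapped and their order changed between libraries. *Plxnc1* (20.3 FPKM), the single plexin C, came next.

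The B plexins were lower, at 5.92 FPKM for *Plxnb1*, 5.39 for *Plxnb2* and 1.58 for *Plxnb3*. *Plxnb1*, the receptor of *Sema4d*, stood at 5.03, 5.60, 5.76 and 5.41 FPKM in dorsal libraries and at 6.88, 6.17, 6.69 and 5.85 in ventral ones, with no overlap. *Plxnd1*, the receptor of *Sema3e*, had a mean of 9.68 FPKM. Of the neuropilins, *Nrp1* (10.3) was above *Nrp2* (8.15). *Nrp1* stood at 10.2, 9.28, 9.42 and 9.15 FPKM in dorsal and at 10.7, 10.7, 11.5 and 11.2 FPKM in ventral libraries, again without overlap.

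**Figure D1:**
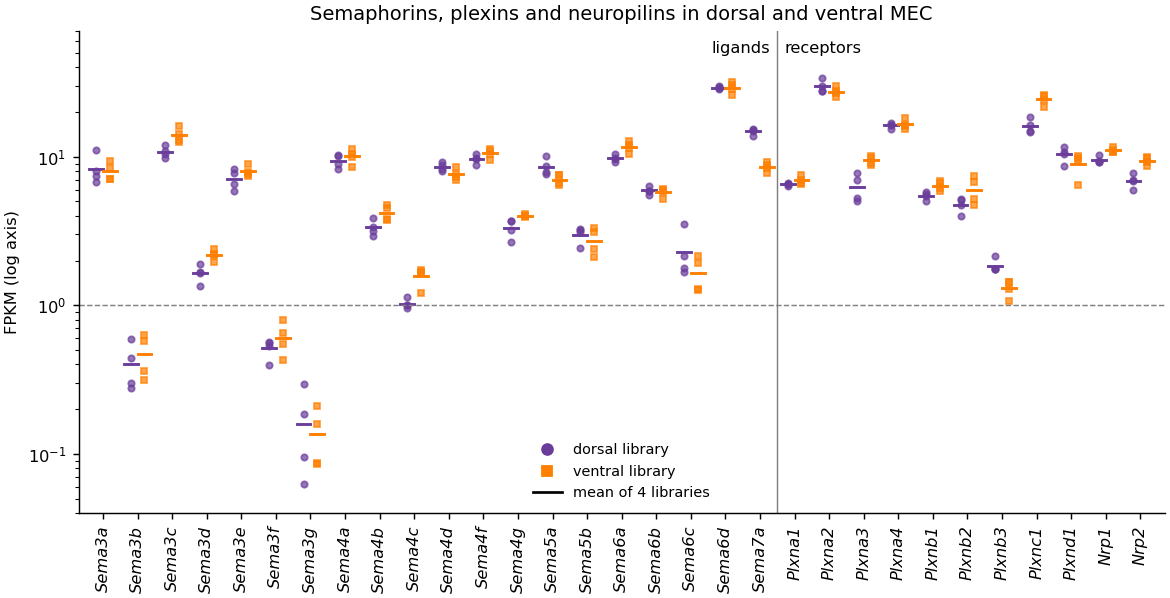
FPKM of the 31 members in each library on a log axis, with ligands on the left and receptors on the right, circles for the 4 dorsal and squares for the 4 ventral libraries, bars for the mean of a region and a dashed line at FPKM 1. The 3 members below the line in every library are *Sema3b*, *Sema3f* and *Sema3g*, and the highest ligand, *Sema6d*, stands level with the highest receptor, *Plxna2*.

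Dorsal and ventral libraries were then compared by limma on log2(FPKM + 1) over the 13674 genes that reached this level and had enough alignments. Calls, as D>V or V>D, needed an adjusted p (Benjamini-Hochberg) under 0.05 together with a difference of at least 20% in mean FPKM. Of the 28 members tested, 4 were called, beside 3.60% of all genes tested. The receptors *Plxnc1*, *Plxna3* and *Nrp2* were V>D, and the ligand *Sema7a* was D>V. Over all genes, 1.45% were V>D and 2.15% D>V. In bulk tissue, fewer cells of a type and less RNA per cell cannot be told apart.

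*Sema7a* was the member with the largest difference, and it fell from dorsal to ventral MEC. It was at 13.8, 14.9, 15.2 and 15.5 FPKM in dorsal and at 8.43, 8.84, 9.29 and 7.82 FPKM in ventral libraries. The lowest dorsal library was well above the highest ventral one. Its mean was 1.73-fold higher in dorsal MEC, at 14.8 ± 0.763 against 8.60 ± 0.625 FPKM (SD, n = 4 each). The log2 ratio of ventral to dorsal means was -0.79, and the fitted difference on the log2(FPKM + 1) scale was -0.72 ± 0.07 (SE, limma adjusted p = 0.00065). Leaving out any 1 library kept the call, with log2 ratios between -0.83 and -0.75 and adjusted p between 0.00187 and 0.00451.

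*Plxnc1*, the plexin that binds *Sema7a*, differed in the opposite direction. It was at 18.6, 14.8, 14.7 and 16.5 FPKM in dorsal and at 26.2, 25.8, 21.6 and 24.1 FPKM in ventral libraries. The highest dorsal library, D1, remained below every ventral library. The mean rose 1.51-fold, from 16.2 ± 1.83 to 24.4 ± 2.12 FPKM, with a fitted difference of 0.57 ± 0.09 (SE, limma adjusted p = 0.00768). The call was kept in each of the 8 fits without 1 library, with adjusted p between 0.006 and 0.0356.

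The FPKM of ligand *Sema7a* per FPKM of receptor *Plxnc1* was 0.738, 1.005, 1.04 and 0.939 in dorsal libraries and 0.321, 0.342, 0.430 and 0.324 in ventral libraries. In dorsal MEC the 2 genes were therefore at about the same level in 3 of the 4 libraries, while in ventral MEC the receptor was above the ligand in every library. Since both genes were called in opposite directions, this ratio gives no separate test. Integrin beta 1, the other receptor known for *Sema7a*, is encoded by *Itgb1*, which had 13.5 ± 1.83 FPKM in dorsal and 12.9 ± 1.14 FPKM in ventral MEC and was not called (limma adjusted p = 0.845).

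*Nrp2* and *Plxna3* were the other receptors called. *Nrp2*, a neuropilin that binds *Sema3f* and *Sema3c*, was at 6.84, 5.93, 7.77 and 6.92 FPKM in dorsal and at 9.27, 8.66, 9.74 and 10.04 FPKM in ventral libraries, without overlap. Its mean rose 1.37-fold, from 6.86 ± 0.751 to 9.43 ± 0.601 FPKM, with a fitted difference of 0.41 ± 0.08 (SE, limma adjusted p = 0.0254). The call did not hold against the loss of most single libraries. It was kept without D2 or without V3, at adjusted p of 0.0283 and 0.0295, and lost without D1, V1, V2, D3, D4 or V4, at adjusted p between 0.0634 and 0.0754. The log2 ratio lay between 0.39 and 0.52 in these 8 fits.

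*Plxna3*, the plexin that pairs with neuropilin 2, was at 7.79, 5.29, 7.02 and 4.9997 FPKM in dorsal and at 10.1, 9.11, 8.81 and 9.75 FPKM in ventral libraries. The dorsal libraries were more spread out than the ventral ones, and the regions did not overlap. Its mean rose 1.504-fold, from 6.28 ± 1.35 to 9.44 ± 0.582 FPKM, with a fitted difference of 0.54 ± 0.12 (SE, limma adjusted p = 0.0402). It was called without D1 (adjusted p = 0.0184) but not without any 1 of the other libraries, V1, D2, V2, D3, V3, D4 and V4, at adjusted p between 0.0541 and 0.121. The log2 ratio lay between 0.49 and 0.71 in these 8 fits, beside 0.59 with all libraries. With the libraries rescaled to one total FPKM it was 0.63 (adjusted p = 0.0523). *Sema3f*, the ligand that signals through this pair of receptors, was among the members below 1 FPKM, at 0.561, 0.397, 0.563 and 0.530 FPKM in dorsal and 0.428, 0.546, 0.800 and 0.653 FPKM in ventral libraries.

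**Figure D2:**
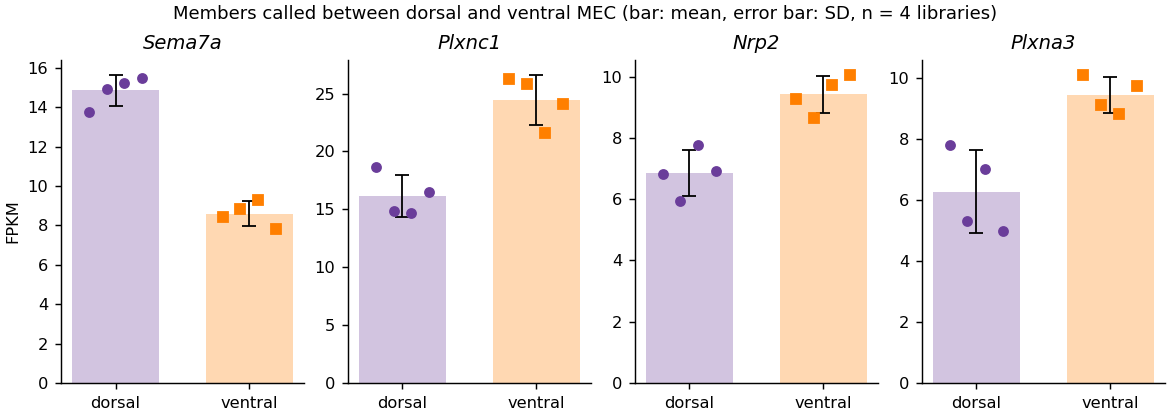
FPKM of the 4 members called by limma, in panels with separate axes that start at 0, with bars for the mean, error bars for the SD and points for the 4 libraries of each region. In each panel the dorsal and ventral points do not overlap, and *Sema7a* is higher in dorsal MEC while *Plxnc1*, *Nrp2* and *Plxna3* are higher in ventral MEC.

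The 4 called genes lie apart in the genome. In the deposited table, on build GRCm38, *Sema7a* is on chromosome 9 (57940113 to 57962864), *Plxnc1* on chromosome 10 (94790866 to 94944578), *Nrp2* on chromosome 1 (62703285 to 62818695) and *Plxna3* on chromosome X (74329066 to 74344689). Exons of *Plxnc1* overlap those of *Gm48718* on the same strand in the GENCODE annotation, so fragments there cannot be told apart. RefSeq promoter windows were found for 26 of the 31 members. The sequences just upstream of the 4 called genes are shown because these are the members that differed between the regions. They run 5′ to 3′ on the gene's strand and end before the annotated start of transcription. Capitals mark each GC box, the letters GGGCGG or CCGCCC.
*Sema7a* (GRCm38.p6 chr9:57939862-57940111, plus strand): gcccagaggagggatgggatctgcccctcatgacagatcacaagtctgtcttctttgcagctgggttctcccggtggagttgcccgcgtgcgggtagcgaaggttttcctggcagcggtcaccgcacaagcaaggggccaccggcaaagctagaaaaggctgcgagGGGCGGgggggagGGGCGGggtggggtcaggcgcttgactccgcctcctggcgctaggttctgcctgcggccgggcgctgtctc
*Plxnc1* (GRCm38.p6 chr10:94944846-94945095, minus strand): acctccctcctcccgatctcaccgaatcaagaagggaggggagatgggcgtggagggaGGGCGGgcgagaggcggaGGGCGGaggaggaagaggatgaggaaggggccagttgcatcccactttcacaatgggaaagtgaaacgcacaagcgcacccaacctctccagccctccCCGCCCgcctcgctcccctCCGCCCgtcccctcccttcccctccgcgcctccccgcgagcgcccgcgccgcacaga
*Nrp2* (GRCm38.p6 chr1:62703067-62703284, plus strand): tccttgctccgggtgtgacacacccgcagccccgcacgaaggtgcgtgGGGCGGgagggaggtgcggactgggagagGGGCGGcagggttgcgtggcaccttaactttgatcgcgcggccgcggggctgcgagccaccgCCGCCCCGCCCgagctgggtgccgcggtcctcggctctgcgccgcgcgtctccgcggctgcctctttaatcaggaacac
*Plxna3* (GRCm38.p6 chrX:74328816-74329065, plus strand): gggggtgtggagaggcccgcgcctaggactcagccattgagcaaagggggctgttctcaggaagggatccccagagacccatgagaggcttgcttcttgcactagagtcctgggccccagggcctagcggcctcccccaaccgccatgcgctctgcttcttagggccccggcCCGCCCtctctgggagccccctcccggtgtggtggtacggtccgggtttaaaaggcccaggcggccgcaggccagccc

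These 4 stretches were rich in G and C, at 66.4% for *Sema7a*, 68.8% for *Plxnc1*, 72.5% for *Nrp2* and 68% for *Plxna3*. A GC box, the motif bound by Sp1 and related factors, occurred 2 times in *Sema7a*, 4 times in *Plxnc1*, 4 times in *Nrp2* and 1 time in *Plxna3*. The last pair in *Nrp2* shares a letter. In the whole RefSeq windows, from 250 bases before to 50 after a start, 27 of the 37 member windows (72.97%) held a GC box, beside 57.0% of the 11897 windows of tested genes and 32.7% of the 32851 windows of all genes. Median GC content was 64% for members, 60% for tested genes and 52.4% for all windows. None of the 4 stretches held a TATA box (TATAAA or TTTATA), an E box (CACGTG), a CRE core (TGACGTCA) or a CCAAT box (CCAAT or ATTGG), each searched on both strands. In the member windows a CCAAT box was found in 18.9% and an E box in 5.41%, beside 34.7% and 8.36% of the windows of tested genes. These matches describe letters only.

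The comparison was repeated with edgeR on the authors' estimated fragments per gene, rounded to whole numbers. It called 8 of the 28 members, beside 6.41% of all genes tested, and these included the 4 genes called by limma. By direction 5 members were V>D and 3 D>V, beside 2.97% and 3.44% of all genes. The other 4 were *Plxnb2* and *Sema3d* as V>D and *Plxnb3* and *Plxnd1* as D>V. DESeq2 on the same fragments called 9 members, beside 6.60% of all genes, namely these 8 and *Sema5a* as D>V. It made 5 members V>D and 4 D>V, beside 3.02% and 3.58% of all genes. The 5 members below are therefore calls of the fragment tests and not of limma.

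*Plxnb2*, a receptor of class 4 semaphorins, was at 4.75, 4.01, 5.22 and 5.08 FPKM in dorsal and at 7.42, 4.72, 6.71 and 5.20 FPKM in ventral libraries. The ventral libraries D3 and D4 were above every dorsal one, while V3 and V4 lay within the dorsal range. In fragments scaled to the library's total (CPM), dorsal libraries held 27.2 to 31.4 and ventral libraries 33.4 to 42.9, without overlap. The edgeR log2 difference was 0.40 (edgeR adjusted p = 0.0056, limma adjusted p = 0.351). *Sema3d*, a secreted ligand, was at 1.65, 1.89, 1.34 and 1.68 FPKM in dorsal and at 1.96, 2.41, 2.17 and 2.22 FPKM in ventral libraries. The regions did not overlap, and the edgeR log2 difference was 0.42 (edgeR adjusted p = 0.0293, limma adjusted p = 0.191).

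*Plxnb3*, the receptor of *Sema5a*, was at 1.76, 1.76, 1.75 and 2.13 FPKM in dorsal and at 1.30, 1.42, 1.44 and 1.07 FPKM in ventral libraries. The regions did not overlap, and the edgeR log2 difference was -0.51 (edgeR adjusted p = 0.0207, limma adjusted p = 0.153). Its ligand *Sema5a* was at 8.63, 7.71, 7.87 and 10.2 FPKM in dorsal and at 6.47, 7.49, 6.66 and 7.49 FPKM in ventral libraries. These did not overlap either, and *Sema5a* was called by DESeq2 alone (DESeq2 adjusted p = 0.0289, edgeR adjusted p = 0.0586, limma adjusted p = 0.205). Receptor and ligand thus had higher dorsal means, with log2 ratios of -0.50 and -0.29 in mean FPKM.

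Beside these D>V genes, markers of oligodendrocytes moved in the same direction. All 7 genes of that list reported here, including the myelin genes *Mbp* and *Mobp*, were D>V, with log2 ratios between -1.02 and -0.72. Their summed level was 595 to 798 FPKM in dorsal and 324 to 425 FPKM in ventral libraries. The part of these cells in the differences of *Sema7a*, *Plxnb3*, *Sema5a* and *Plxnd1* was not tested.

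*Plxnd1* was at 10.8, 11.7, 8.69 and 10.4 FPKM in dorsal and at 9.84, 9.51, 10.1 and 6.43 FPKM in ventral libraries. Only the ventral library V4 lay below every dorsal one. In CPM the regions did not overlap, with 53.2 to 62.8 in dorsal and 37.2 to 51.0 in ventral libraries. The log2 ratio was -0.21 in mean FPKM and -0.40 in fragments (edgeR adjusted p = 0.0056, limma adjusted p = 0.525). Without V4 the log2 ratio in mean FPKM was -0.084. Of the markers of endothelial cells, for which *Plxnd1* is known, limma and edgeR called 0 of 6, and the median log2 ratio was -0.31. DESeq2 called *Tek* and *Slco1a4* of this list D>V (DESeq2 adjusted p = 0.0431 and 0.0316). The part of endothelial cells in the difference of *Plxnd1* was not tested.

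The log2 ratio of ventral to dorsal was compared on both scales. It differed by no more than 0.1 between mean FPKM and fragments in 24 of the 28 members. The 4 exceptions were *Sema4c*, *Sema5b*, *Plxnd1* and *Sema3c*. For *Sema4c*, a transmembrane ligand of plexin B2, dorsal values were 1.01, 1.15, 1.0004 and 0.952 FPKM and ventral values 1.66, 1.68, 1.21 and 1.73 FPKM, without overlap. In CPM it was at 2.59 to 3.76 in dorsal and at 2.78 to 3.85 in ventral libraries, which overlapped almost fully. The log2 ratio was 0.61 on the FPKM scale and 0.06 in fragments (limma adjusted p = 0.13, edgeR adjusted p = 0.911). Only 30 to 56 fragments per library stood behind it, and its exons overlap *D430040D24Rik* on the other strand. Exons of *Plxna1*, *Plxna4* and *Plxnb1*, whose ratios differed by no more than 0.1, also overlap genes on the other strand. The part of such overlap in the difference between the scales was not tested.

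For *Sema3c* the log2 ratio was 0.37 in mean FPKM and 0.20 in fragments (limma adjusted p = 0.0706, edgeR adjusted p = 0.253), so it was V>D in neither test. In CPM it overlapped between the regions, at 43.1 to 52.8 in dorsal and 45.5 to 60.3 in ventral libraries. With the libraries rescaled to one total FPKM it was called (adjusted p = 0.0272). For *Sema5b* the sign itself differed, at -0.14 in mean FPKM and 0.14 in fragments, and the regions overlapped on both scales.

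**Figure D3:**
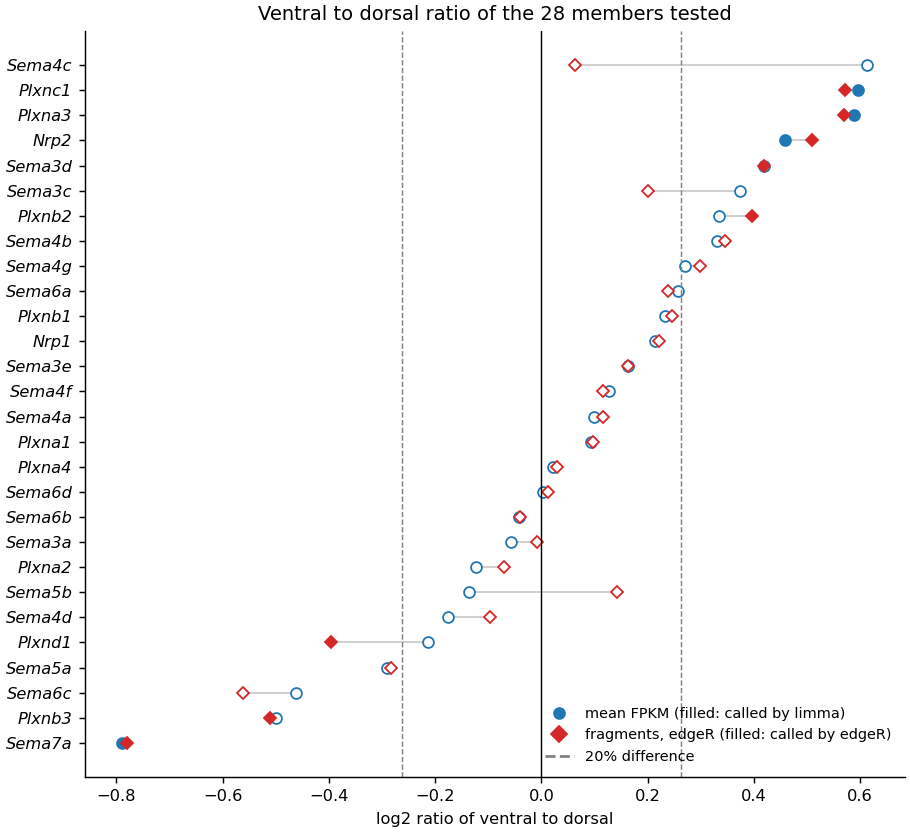
log2 ratio of ventral to dorsal for the 28 members tested, with circles for mean FPKM and diamonds for fragments fitted by edgeR, filled where a member was called, and dashed lines at a 20% difference. *Sema7a* stands at the lower end and *Sema4c*, *Plxnc1*, *Plxna3* and *Nrp2* at the upper end, and the longest line between a circle and a diamond is that of *Sema4c*.

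More members did not overlap between the regions than were called. Of the 28 members tested, the FPKM of 13 did not overlap, beside 11.1% of all genes tested. Ventral libraries were higher in 10 of them, 5 ligands (*Sema3c*, *Sema3d*, *Sema4c*, *Sema4g* and *Sema6a*) and 5 receptors (*Nrp1*, *Nrp2*, *Plxna3*, *Plxnb1* and *Plxnc1*), beside 4.95% of all genes. Dorsal libraries were higher in *Sema5a*, *Sema7a* and *Plxnb3*, beside 6.17% of all genes. Among them *Sema6a*, a ligand of plexins A2 and A4, had a log2 ratio of 0.26, just short of a 20% difference, and *Nrp1* one of 0.21 (limma adjusted p = 0.135 and 0.143). *Sema4g* had one of 0.27 (limma adjusted p = 0.288). At an unadjusted p under 0.05, 14 of the 28 members passed limma, beside 16.0% of all genes.

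The members that did not pass either test had log2 ratios of mean FPKM between -0.46 and 0.61. Those within 0.1 of no change were *Sema6d* (0.00), *Plxna4* (0.02), *Sema6b* (-0.04), *Sema3a* (-0.06), *Plxna1* (0.09) and *Sema4a* (0.10). For *Plxna2* it was -0.12, for *Sema4f* 0.13, for *Sema3e* 0.16 and for *Sema4d*, a ligand of plexin B1 that oligodendrocytes are known to make, -0.17. For *Sema4b* it was 0.33, and the regions overlapped in FPKM. In CPM *Sema4b* did not overlap, with the highest dorsal library at 14.24 just below the lowest ventral one at 14.36. Its log2 difference in fragments was 0.35 (edgeR adjusted p = 0.095, limma adjusted p = 0.228). *Sema6c*, at -0.46, had the widest spread in FPKM of the members tested, with 1.68 to 3.54 FPKM in dorsal and 1.28 to 2.15 FPKM in ventral libraries. In CPM *Sema6c* did not overlap, at 3.70 to 5.73 in dorsal and 2.88 to 3.16 in ventral libraries. Its log2 difference in fragments was -0.56 (edgeR adjusted p = 0.065, limma adjusted p = 0.507), on 31 to 73 fragments per library. Over the dorsal libraries the coefficient of variation of FPKM ran from 1.67% for *Sema6d* to 37.6% for *Sema6c* among the members tested.

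Taken by role, receptors were higher in ventral MEC as a sum and ligands were not. The summed FPKM of the 11 receptors was 119, 108, 111 and 118 in dorsal and 130, 129, 130 and 123 in ventral libraries. The sums did not overlap between the regions, with means of 114 ± 5.41 and 128 ± 3.65 FPKM (SD, n = 4 each). This separation rested on single genes. Without *Plxnc1* the receptor sums were 93.1 to 101 FPKM in dorsal and 98.5 to 109 FPKM in ventral libraries, and without *Nrp2* 112.6 was both the highest dorsal and the lowest ventral sum, so that in either case they overlapped. Without any 1 of the other 9 receptors they did not overlap. The ligand sums did overlap, at 133 to 141 FPKM in dorsal and 136 to 139 FPKM in ventral libraries. Of the receptor families, plexin C had means of 16.2 and 24.4 FPKM and the neuropilins summed means of 16.4 and 20.5 FPKM in dorsal and ventral MEC, both without overlap. The sums of plexins A (59.0 and 60.4 FPKM), plexins B (12.1 and 13.7 FPKM) and plexin D (10.4 and 8.97 FPKM) overlapped between the regions. These sums rest on genes described above and were not tested.

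The even sum of the ligands held classes whose means differed in opposite directions. Class 3 had a summed mean of 28.9 FPKM in dorsal and 33.3 FPKM in ventral MEC, and class 4 one of 35.3 and 38.0 FPKM, while class 6 was at 47.1 and 48.3 FPKM, and in these 3 classes the regions overlapped. Class 5 was at 11.6 and 9.76 FPKM and class 7 at 14.8 and 8.60 FPKM, both without overlap and higher in dorsal MEC. The median log2 ratio was 0.10 over the 17 ligands tested and 0.21 over the 11 receptors, beside -0.01 over all genes tested.

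For other ligand and receptor pairs the FPKM ratio was compared in the same way. *Sema4d* per *Plxnb1* was 1.48 to 1.83 in dorsal and 1.05 to 1.31 in ventral libraries, without overlap. *Sema6a* per *Plxna2* was 0.308 to 0.351 in dorsal and 0.351 to 0.459 in ventral libraries, without overlap but with dorsal D2 (0.3505) next to ventral V3 (0.3508). For *Sema3c* per *Nrp2* (1.27 to 1.76 and 1.33 to 1.63), *Sema3a* per *Nrp1* (0.733 to 1.08 and 0.617 to 0.874), *Sema3e* per *Plxnd1* (0.506 to 0.799 and 0.734 to 1.40) and *Sema6d* per *Plxna1* (4.39 to 4.69 and 3.88 to 4.84) the regions overlapped. These ratios were not tested.

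Partners of the family inside and outside the cell were followed in a list of 63 genes, of which 61 were matched and 52 tested. Of these, 4 were called V>D and 0 D>V by limma, beside 1.45% and 2.15% of all genes, and 13 passed at an unadjusted p under 0.05, beside 16.0% of all genes. By edgeR 6 were V>D and 3 D>V, beside 2.97% and 3.44% of all genes. The 4 called by limma were the adhesion molecules *L1cam* and *Chl1*, which bind neuropilins, and the collapsin response mediators *Dpysl3* and *Dpysl5*. These mediators act on microtubules downstream of semaphorins. Of the 11 co-receptors and other receptors tested, limma called only *L1cam* and *Chl1*. *Nrcam*, another adhesion molecule of that group, had a log2 ratio of -0.10 and was not called (limma adjusted p = 0.446).

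*Dpysl5* had the largest difference of the 4 called genes. It was at 7.80, 8.46, 9.29 and 10.5 FPKM in dorsal and at 14.6, 13.1, 17.2 and 16.1 FPKM in ventral libraries, without overlap. Its log2 ratio was 0.76 (limma adjusted p = 0.00525), and it was called in each of the 8 fits without 1 library. The other collapsin response mediators *Crmp1* (0.11), *Dpysl2* (-0.09) and *Dpysl4* (0.05) were not called.

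*Dpysl3* rose from 14.999 ± 0.695 to 18.8 ± 1.05 FPKM (log2 ratio 0.32, limma adjusted p = 0.0292). *L1cam* rose from 55.8 ± 2.59 to 67.5 ± 2.89 FPKM (0.28, limma adjusted p = 0.0346) and *Chl1* from 55.9 ± 4.71 to 70.9 ± 4.83 FPKM (0.34, limma adjusted p = 0.0394). These 3 calls rested on most single libraries. *Dpysl3* and *L1cam* were kept only without V3 (adjusted p = 0.0252 and 0.0459), and *Chl1* only without V2 or without D4 (adjusted p = 0.0364 and 0.0413). Without D1, V1, D2, D3 or V4 none of the 3 was called, nor were *Dpysl3* and *L1cam* without V2 or D4 or *Chl1* without V3, at adjusted p between 0.0533 and 0.128.

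In the remaining groups limma called 0 genes. Among 16 tested GTPases and exchange factors the median log2 ratio was -0.04, and *Rac1* (205 and 220 FPKM), *Cdc42* (138 and 135 FPKM) and *Rhoa* (42.3 and 39.4 FPKM) were at high levels in both regions. Among 10 kinases it was -0.06, among 5 adaptors -0.07 and among 3 MICALs and actin regulators 0.02. The largest log2 ratio of all partners tested, 0.96, was that of the oxidoreductase *Mical1*, which was at 1.20, 1.31, 0.929 and 1.30 FPKM in dorsal and 1.75, 2.69, 3.79 and 0.997 FPKM in ventral libraries. Its ventral libraries were widely spread and overlapped the dorsal ones, and it was called by none of the 3 tests (limma adjusted p = 0.301). By edgeR and DESeq2 but not by limma, the receptor kinase *Met* and the exchange factor *Tiam1* were V>D, and the kinase *Pak1*, the oxidoreductase *Mical2* and the plexin domain protein *Plxdc1* were D>V (edgeR adjusted p between 0.000914 and 0.0489). The other neuropilin ligands *Vegfa* (log2 ratio 0.04) and *Vegfb* (0.06) were not called, and *Vegfc* and *Pgf* were below 1 FPKM.

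**Figure D4:**
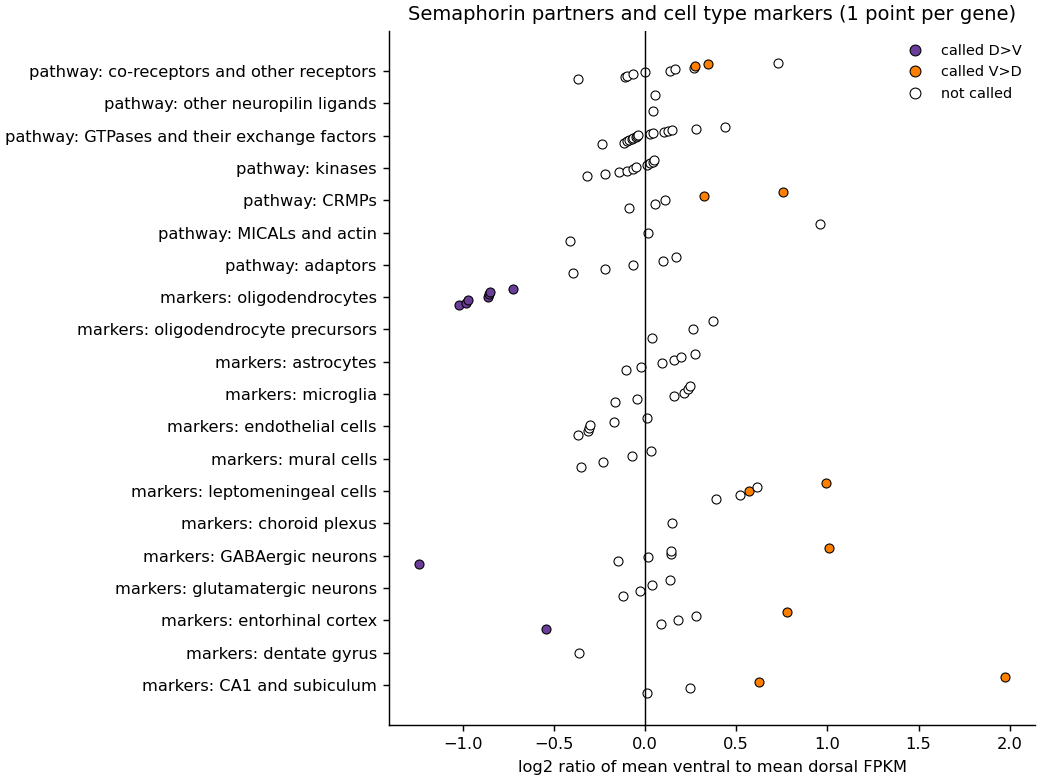
Ventral to dorsal ratio of mean FPKM, on a log2 axis, for each tested gene of the partner lists and of the cell type marker lists, filled where limma called it D>V or V>D. The 4 called partners lie right of 0, the 7 oligodendrocyte markers lie at -0.72 or below, and most other points are unfilled.

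The labelled tissue was checked against marker lists. Neuronal genes were at high levels in both regions, such as *Slc17a7* (107 and 105 FPKM) and *Gad1* (60.9 and 54.9 FPKM), and so was *Reln* (31.7 and 35.8 FPKM), which marks entorhinal layer II. Of the entorhinal list, limma called *Calb1* V>D and *Wfs1* D>V, and did not call *Reln*, *Lef1* (log2 ratio 0.09) or *Etv1* (0.28). The call of *Wfs1* was kept in each of the 8 fits without 1 library, that of *Calb1* (limma adjusted p = 0.0306) in only 3. Of the GABAergic list, *Pvalb* was D>V (log2 ratio -1.24) and *Sst* V>D (1.01). Of 5 tested leptomeningeal markers, limma called *Dcn* and *Igf2* V>D and edgeR also *Col1a2* and *Slc6a13*, while *Col1a1* was below 1 FPKM. The sum of the leptomeningeal markers was 66.8 to 72.3 FPKM in dorsal and 108 to 122 FPKM in ventral libraries. Their part in the V>D members *Plxnc1*, *Nrp2*, *Plxna3*, *Plxnb2* and *Sema3d* was not tested, nor was that of the interneurons.

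Of the CA1 and subiculum list, *Fibcd1* (0.641 and 2.52 FPKM) and *Fn1* (10.8 and 16.6 FPKM) were V>D. The call of *Fibcd1* was kept in each of the 8 fits without 1 library, and that of *Fn1* (limma adjusted p = 0.0438) in only 1. The other genes of this list, *Nr4a2* (log2 ratio 0.01) and *Tle4* (0.25), were not called. Of the dentate list, *C1ql2* and *Dsp* lay at or below 0.318 FPKM in every library. The third dentate gene, *Prox1*, which some interneurons also express, was at 4.48 and 3.49 FPKM, with overlapping regions, and was D>V in the fragment tests but not in limma (edgeR adjusted p = 0.0105, limma adjusted p = 0.177). Limma called 0 of 6 astrocyte, 0 of 6 microglial, 0 of 6 endothelial, 0 of 4 mural, 0 of 4 glutamatergic and 0 of 3 oligodendrocyte precursor markers. In these lists edgeR and DESeq2 called the astrocyte gene *Gfap* and the precursor gene *Pdgfra* V>D (edgeR adjusted p = 0.0344 and 0.0123). DESeq2 alone called the endothelial genes *Tek* and *Slco1a4* D>V. The choroid plexus genes *Ttr*, *Folr1* and *Clic6* lay at or below 0.128 FPKM in every library, while *Kl*, the other gene of that list, was at 1.06 and 1.18 FPKM and was not called.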

How the data were processed

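RNA from dorsal and ventral MEC was measured in 8 libraries, 4 per region, from pools of 3 or 4 mice. Per the labels, cDNA was amplified from 120 ng of RNA with integrity numbers of 7.1 to 8.5. Per the submitters' processing notes the authors used CASAVA 1.8, TopHat2 2.0.8 and Cuffdiff. The deposited FPKM values are those of Cuffdiff, which scales the libraries to each other, and the estimated counts of fragments per gene and library were deposited in a second table, where 9.36% of values are not whole. Strandedness is not given in the sources used here, so sense and antisense fragments of overlapping genes cannot be told apart. The authors' comparison columns (ratios, p-values and q-values) were used for no result, except that the region means were used to assign libraries to regions and the alignment status to filter genes. In all, 2 columns of scaled fragments were not used.

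The members and gene lists were chosen with earlier results of these data known. The 13674 genes with enough alignments whose FPKM averaged 1 or more entered limma 3.58.1 (R 4.3.3), with a mean-variance trend on log2(FPKM + 1), which understates the change of low genes, with Benjamini-Hochberg adjustment over all of them and a minimum log2 ratio of 0.263. edgeR 4.0.16 (quasi-likelihood, TMM) and DESeq2 1.42.0 on rounded estimated counts were alternatives. On simulated data, 178 of 200 genes changed 2-fold among 13674 were recovered (89%), with 3.78% of calls outside them. Every called member changed less than 2-fold, so this share does not give the recovery of changes of their size. Every member is named. Values per library are given for members called by limma or edgeR and for the highest member of each class, and also for *Sema4c* and *Sema3f*, which, like the partner *Mical1*, were added after their values were seen. Partner genes called by limma are given with values. A single cell type marker is not reported here. Lists of partners and of cell type markers came from textbook knowledge, and *Arhgap35*, *Mical3* and *Cux2* were not matched. Promoter sequences are RefSeq's for GRCm38.p6, and 5 members had none. Python 3.11.15, NumPy 2.4.6, pandas 2.3.3 and matplotlib 3.10.9 were used.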

Additional observations from a re-analysis of the deposited data

Results flagged for a closer look

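In 4 of the 62 sets of 4 libraries examined (31 members in 2 regions), 1 library stood apart from the other 3 by Dixon's criterion. Chance flags about 1 in 20 such sets. *Sema4c* was at 1.21 FPKM in ventral library D4 and at 1.66 to 1.73 FPKM in the other ventral libraries. *Plxnd1* was at 6.43 FPKM in ventral library V4 and at 9.51 to 10.1 FPKM in the others. *Plxnb3* was at 2.13 FPKM in dorsal library V2 and at 1.75 to 1.76 FPKM in the others. *Sema5b* was at 2.42 FPKM in dorsal library D1 and at 3.13 to 3.24 FPKM in the others. The 4 libraries are all different. None of these 4 members was called by limma, but *Plxnb3* and *Plxnd1* were D>V by edgeR and DESeq2. In both, the library that stood apart in FPKM lay on the side of that difference. The fragment tests were not repeated without single libraries.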

How the results depend on the processing

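The number of members called was 4 under a constant of 0.1, without an FPKM filter, with a mean FPKM of at least 5, with one total FPKM, with quantile normalization, with array weights and without the ratio threshold. It was 8 by edgeR and 9 by DESeq2 on fragments, each including the 4, and between 2 and 3 without 1 library. Under the regions named by the headers it was 0, and the log2 ratios of *Nrp2*, *Plxna3* and *Sema7a* were -0.0916, -0.21 and 0.0103. Those regions mix libraries taken here as dorsal and as ventral in equal number, so these values do not test the calls. The number of partner genes called was 4, against 9 by edgeR, 9 by DESeq2, 5 with array weights, 0 under the headers' regions and between 1 and 3 without 1 library. Without D1 the 3 were *Dpysl5* as V>D and *Pak1* and *Plxdc1* as D>V, so that 1 was shared with the 4. With one total FPKM, 3 of the 4 called members were kept and *Sema3c* took the place of *Plxna3*, while the median log2 ratio of all genes moved from -0.01 to 0.04. The number of members at a mean FPKM of at least 1 was 28 without any 1 library, 31 at a limit of 0.1 and 21 at a limit of 5. Why FPKM and fragments differ for some members was not tested. No paired analysis was possible because the pool of mice behind each library is not given. Low fragment numbers limit *Sema3b*, *Sema3f*, *Sema3g*, *Sema4c* and *Sema6c*.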
